A study of Homo sapiens with 8 samples.

Results

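The 9 genes described here handle deoxynucleotides and the nucleoside drugs that imitate them: SLC29A1, DCK, NT5C2, SAMHD1, ADA, RRM1, RRM2, TYMS and TK1. They were taken by gene symbol from an Affymetrix array of 21448 probe sets, which measured 17687 genes with 1 symbol, and each of the 9 had 1 probe set. The cells were CCRF-CEM, an established human line of T-cell acute lymphoblastic leukaemia (T-ALL). In the treated group, cells received 1 µM OICR-9429 for 1 h and were then held for 1 h in a gel of bovine type I collagen at 1.7 mg/mL. In the untreated group, cells went into the same gel for 1 h without OICR-9429, and no solvent given to them is mentioned. OICR-9429 is an inhibitor of WDR5, a scaffold protein of the MLL-family histone methyltransferases. Each group has 4 arrays, titled as biological replicates 1 to 4, and both groups are the same single cell line. Whether the numbers mark separate passages or days is not stated, so the p-values cover the spread of these samples alone.

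A dividing cell makes most of its deoxynucleotides by reducing ribonucleotides, a step catalysed by ribonucleotide reductase, whose large subunit is RRM1 and whose small subunit is RRM2. Thymidylate comes either from dUMP through thymidylate synthase (TYMS) or from salvaged thymidine through thymidine kinase 1 (TK1), and RRM2 and TK1 are known to be highest in S phase. Nucleoside drugs used in leukaemia, such as cytarabine, use the same routes: the transporter ENT1 (the product of SLC29A1) brings them in, deoxycytidine kinase (DCK) adds the first phosphate, the nucleotidase NT5C2 can remove a phosphate from nucleoside monophosphates, and SAMHD1 hydrolyses deoxynucleoside triphosphates, including the active form of cytarabine. Adenosine deaminase (ADA) clears adenosine and deoxyadenosine and is known for its high activity in immature T cells.

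Values are log2 expression after RMA, the authors' normalization, and a difference of 1 is a doubling. The arrays had medians of 6.38 to 6.46 and lower quartiles of 4.52 to 4.69, and no pair of arrays was identical. Upper quartiles were lowest at number 4, at 8.12 on the OICR-9429 array and 8.08 on the untreated array. On the other arrays they were 8.29 to 8.4. Over all probe sets, replicate number held 85.5% of the variance and treatment 3.93%. Among lists of cell type markers, the 12 T-cell genes had mean levels of 9.17 to 9.71 on the OICR-9429 arrays, against 9.25 to 9.73 on the untreated arrays. The 6 measured of 7 myeloid genes were at 5.37 to 5.93 against 5.39 to 6.06, the 5 NK-cell genes at 4.64 to 5.11 against 4.74 to 5.37, and the 7 fibroblast and epithelial genes at 5.88 to 5.99 against 5.86 to 6.10. The 4 measured of 5 B-cell genes were at 6.81 to 7.01 against 6.68 to 7.01 and the 3 of 5 erythroid genes at 5.86 to 5.95 against 5.65 to 6.11, and no marker of any of the 6 lists passed the test for treatment. Within lists the gene means spread widely, from 3.73 to 9.42 for B-cell and 2.94 to 9.20 for NK-cell genes. For T-cell genes they ran from 6.50 to 11.8. These are bulk RNA samples, in which fewer cells of a kind and less RNA per cell cannot be told apart.

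OICR-9429 was not followed by a change in any of the 9 genes that passed the test. With limma and Benjamini-Hochberg adjustment over all 21448 probe sets, 0 of 9 reached an adjusted p under 0.05, where 0% of all probe sets did, and each of the 9 had an adjusted p of 1. At an unadjusted p under 0.05 the count was also 0 of 9, against 0.49% of all probe sets. The differences, treated minus untreated, were above 0 for 5 genes and below 0 for 4, with a median of 0.05, against a median of 0.005 over all probe sets. Leaving SAMHD1 aside, they ran from -0.13 to 0.11, and the 32 differences between same-numbered arrays ran from -0.37 to 0.24, with 18 above 0 and 14 below. All 4 same-numbered pairs pointed one way for 2 of the 9 genes, DCK and SAMHD1, both higher in treated cells, and for 12.6% of all probe sets. No gene had groups of arrays that did not overlap (0 of 9, against 0.737% of all probe sets).

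The spread between replicate numbers set the precision of this comparison. Without a term for replicate number the standard errors (SE) of the 8 genes other than SAMHD1 were 0.17 to 0.47. The numbers paired the samples, and with the number as a block the SEs of these 8 fell within 0.09 to 0.11. The 95% intervals of the blocked differences then stayed within a 1.5-fold change either way for 8 of the 9 genes and within a 2-fold change for all 9. Among those 8 the interval bound farthest from 0 was 0.38, so that a 1.31-fold change or more lay outside all 8 intervals. At an unadjusted p under 0.05 the blocked fit called 1 of 9 genes, SAMHD1, where it called 5.55% of all probe sets. After adjustment it called 0 of 9, against 0% of all probe sets.

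**Figure D1:**
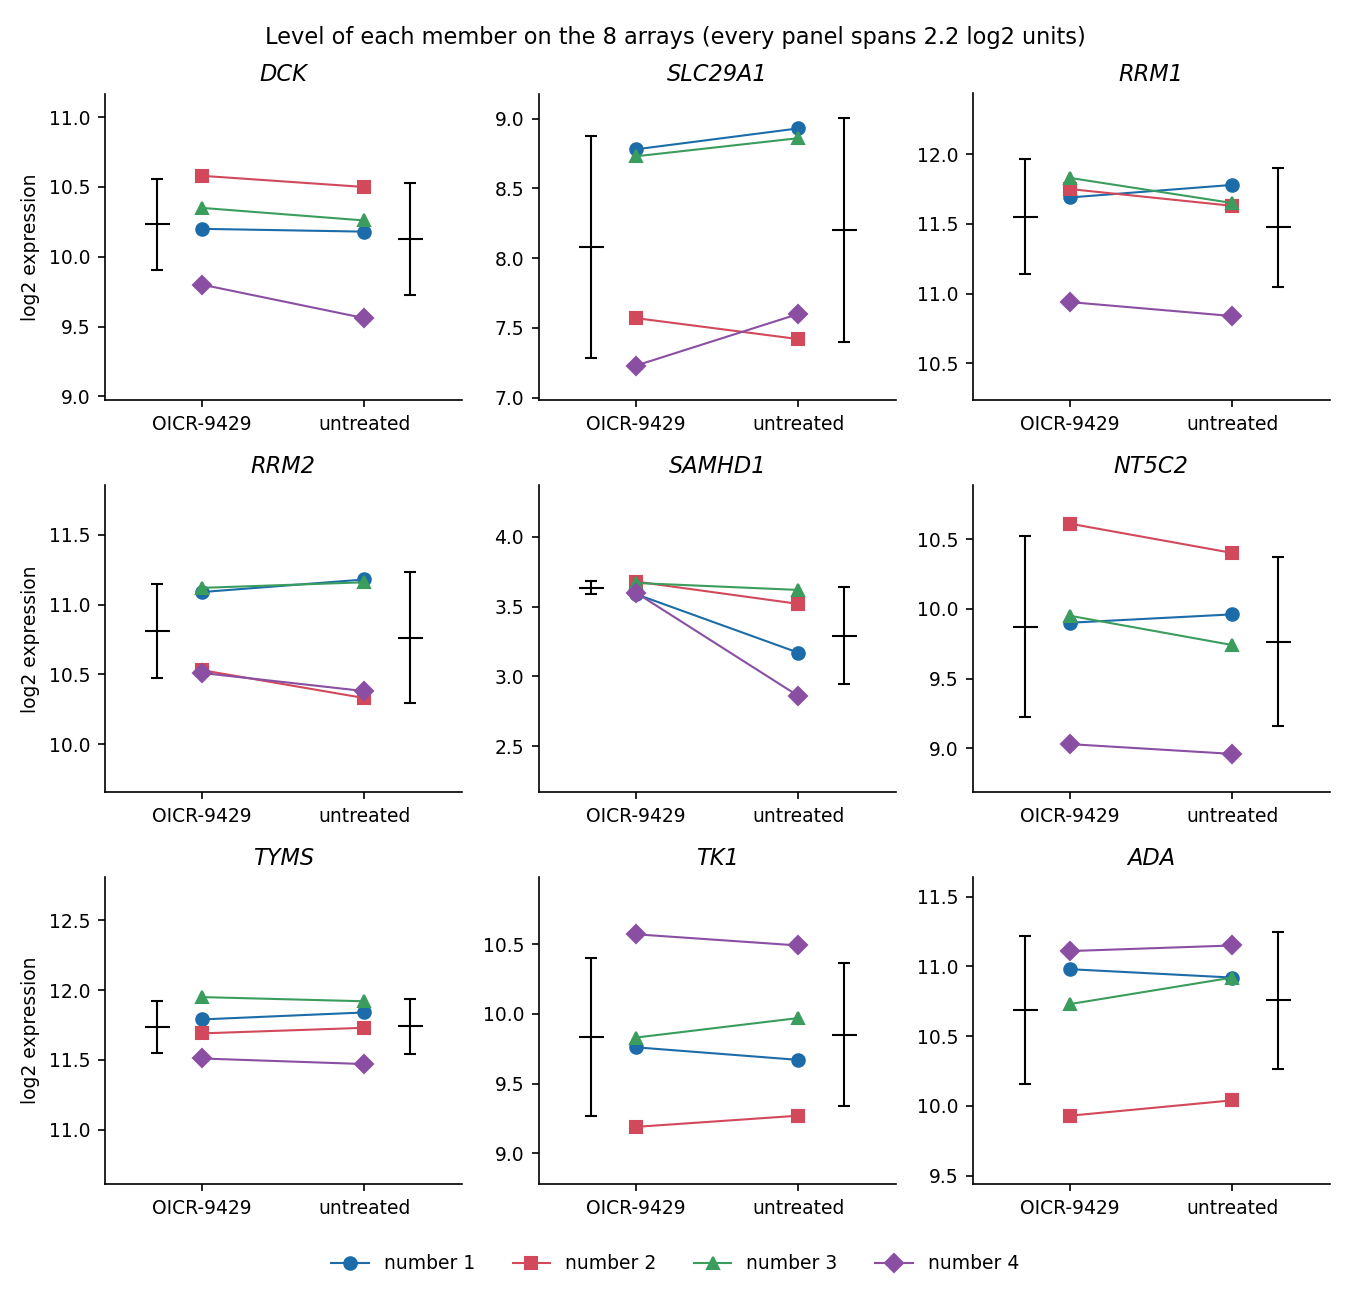
Log2 expression of the 9 genes (vertical axis) on every array, with OICR-9429 points left of untreated points a line joining arrays of the same number, and the mean and SD of each group (n = 4) at the sides. Differences along the lines are smaller than the distance between the highest and lowest number for every gene but SAMHD1. The treated arrays of SAMHD1 lie at 3.59 to 3.68 and its untreated arrays at 2.86 to 3.62.

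**Figure D2:**
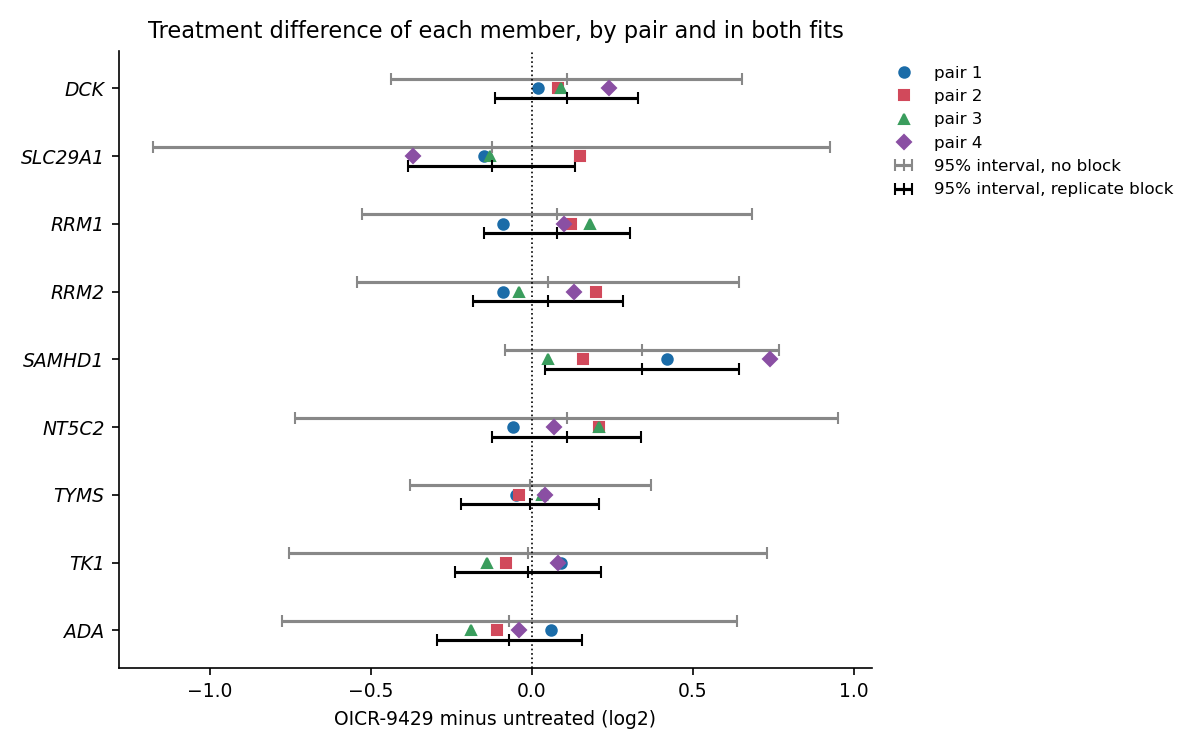
Differences between OICR-9429 and untreated cells (log2, horizontal axis) for the 9 genes, with the difference in each same-numbered pair, the mean and its 95% intervals from the fits without (grey) and with (black) the replicate block. The blocked intervals hold 0 for 8 genes, and that of SAMHD1 runs from 0.04 to 0.64 before any adjustment for the number of probe sets.

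SLC29A1, the nucleoside importer, read 8.78, 7.57, 8.73 and 7.23 on the OICR-9429 arrays of numbers 1 to 4, against 8.93, 7.42, 8.86 and 7.60 on the untreated arrays. Both groups held a high pair of numbers, 1 and 3, and a low pair, 2 and 4, and every array of the first pair lay above every array of the second. Its mean was 8.08 ± 0.79 in treated and 8.20 ± 0.80 in untreated cells (SD, n = 4 each), a difference of -0.13 ± 0.47 (SE; limma adjusted p = 1). SLC29A1 was lower in treated cells within 3 of the 4 pairs and higher within number 2.

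For DCK, the kinase that traps deoxycytidine and its drug analogues in the cell, the OICR-9429 arrays gave 10.20, 10.58, 10.35 and 9.80 and the untreated arrays 10.18, 10.50, 10.26 and 9.56. The order of the numbers was the same in both groups, with number 2 highest and number 4 lowest. DCK was higher in treated cells in all 4 pairs, by 0.02, 0.08, 0.09 and 0.24. The mean was 10.23 ± 0.33 in treated and 10.13 ± 0.40 in untreated cells (SD, n = 4 each), which differ by 0.11 ± 0.24 (SE; limma adjusted p = 1). With the block the SE was 0.10 and the unadjusted p was 0.296 in limma.

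NT5C2, the cytosolic nucleotidase, had 9.90, 10.61, 9.95 and 9.03 in treated cells, against 9.96, 10.40, 9.74 and 8.96 in untreated cells. Number 2 was the highest and number 4 the lowest in both groups, and the 2 lay 1.51 apart on average, a 2.85-fold difference and the widest of the 9 genes. Treatment means of 9.87 ± 0.65 and, for untreated cells, 9.77 ± 0.60 (SD, n = 4 each) differed by 0.11 ± 0.38 (SE; limma adjusted p = 1).

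SAMHD1, the triphosphate hydrolase, was the gene with the largest treatment difference of the 9 and the smallest differences between numbers. Its OICR-9429 arrays read 3.59, 3.68, 3.67 and 3.60, against 3.17, 3.52, 3.62 and 2.86 on the untreated arrays. The treated arrays lay close together, while the untreated arrays of numbers 1 and 4 were low, and the groups overlapped through the untreated array of number 3. Means of 3.64 ± 0.05 in treated and 3.29 ± 0.35 in untreated cells (SD, n = 4 each) differed by 0.34 ± 0.19 (SE), a limma adjusted p of 1 and an unadjusted p of 0.102. With the block the difference had an SE of 0.13, a 95% interval of 0.04 to 0.64, an unadjusted p of 0.031 and an adjusted p of 0.841 in limma. The untreated array of number 4 carried much of it: without that array the difference was 0.20, and without both arrays of number 4 it was 0.21 in the blocked fit, with an adjusted p of 0.983. All 8 values were under the lower quartile of their array. Scanner files were not used here, so how far this probe set stood above background is not known, and a level also depends on the probes.

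ADA, the deaminase, gave 10.98, 9.93, 10.73 and 11.11 on the OICR-9429 arrays, against 10.92, 10.04, 10.92 and 11.15 on the untreated arrays. Number 2 stood apart as the low one in both groups. The means, 10.69 ± 0.53 in treated and 10.76 ± 0.49 in untreated cells (SD, n = 4 each), differed by -0.07 ± 0.31 (SE; limma adjusted p = 1), and ADA was lower in treated cells in 3 of 4 pairs.

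The large subunit of ribonucleotide reductase, RRM1, was at 11.69, 11.75, 11.83 and 10.94 in treated cells, against 11.78, 11.63, 11.65 and 10.84 in untreated cells. In each group 3 arrays lay within 0.15 of each other and number 4 lay well under them. The small subunit, RRM2, read 11.09, 10.53, 11.12 and 10.51 in treated cells, against 11.18, 10.33, 11.16 and 10.38 in untreated cells. RRM2 thus had numbers 1 and 3 high and numbers 2 and 4 low, so the subunits of one enzyme differed over the numbers in their own ways: number 2 was with the high arrays for RRM1 and with the low arrays for RRM2. Treated minus untreated, RRM1 differed by 0.08 ± 0.27 and RRM2 by 0.05 ± 0.26 (SE, n = 4 each; limma adjusted p = 1 for both).

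TYMS, which methylates dUMP to thymidylate and is the target of fluorouracil metabolites, had 11.79, 11.69, 11.95 and 11.51 on the OICR-9429 arrays, against 11.84, 11.73, 11.92 and 11.47 on the untreated arrays. No pair differed by more than 0.05. Its difference was -0.005 ± 0.17 (SE, n = 4 each; limma adjusted p = 1), and the blocked 95% interval ran from -0.22 to 0.21. TK1, which phosphorylates salvaged thymidine, read 9.76, 9.19, 9.83 and 10.57 in treated cells, against 9.67, 9.27, 9.97 and 10.49 in untreated cells. Number 4 was the highest array of both groups for TK1, where it was the lowest for TYMS. TK1 differed by -0.01 ± 0.33 (SE, n = 4 each; limma adjusted p = 1), higher in treated cells in 2 pairs and lower in 2.

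Replicate number separated the 9 genes far more than treatment did. In a model with number and treatment, 7 of 9 genes differed between numbers at an adjusted p under 0.05 (limma's moderated F over all 21448 probe sets), where 50.3% of all probe sets did. That share covers probe sets at every level, while 8 of the 9 genes lie above the median level. No share matched for level was taken. The 7 were SLC29A1 (adjusted p = 0.000409), NT5C2 (0.000635), TK1 (0.00107), ADA (0.0013), RRM1 (0.00328), RRM2 (0.00427) and DCK (0.00559). TYMS (0.0837) and SAMHD1 (0.229) did not pass. Number held 95.6% to 98.8% of the variance of each gene other than SAMHD1, and 37.6% of that of SAMHD1, where treatment held 39.0%. The distance between the highest and lowest number was larger than the largest difference within a pair for 8 of 9 genes, the exception being SAMHD1, at 0.415 against 0.74. What differed between the numbers is not stated. These tests have 2 arrays per number, and their error comes from the variation of the treatment difference across numbers, so they hold no measure of how separate cultures would differ.

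Number 4 held the most calls. Set against the mean of the other numbers, 6 of 9 genes were lower there (25.5% of all probe sets were) and 2 were higher (26.3% of all probe sets). Because of this form of comparison, a low or high number moves the differences of the other numbers the opposite way. Calls at different numbers are therefore not separate results. Quantile normalization gave the same counts at number 4, with differences of -0.87 to 1.04, against -1.10 to 0.92 as deposited. NT5C2 fell to 8.995 at number 4, against 10.09 over the other numbers, a difference of -1.10 ± 0.12 (SE; limma adjusted p = 0.000175). SLC29A1 was at 7.42 against 8.38, RRM1 at 10.89 against 11.72, and DCK at 9.68 against 10.35, with limma adjusted p-values of 0.00054, 0.000585 and 0.00155. RRM2 (-0.46 ± 0.12; limma adjusted p = 0.0117) and TYMS (-0.33 ± 0.11; 0.0321) were lower by less. TYMS kept its call in only 2 of the 11 fits that left out an array or a pair, with adjusted p-values up to 0.162, and RRM2 lost its call in 3 of 11, up to 0.0909. The genes that went the other way were TK1, at 10.53 against 9.62, a difference of 0.92 ± 0.11 (SE; limma adjusted p = 0.000372), and ADA, at 11.13 against 10.59 (0.54 ± 0.11; 0.00443). Thus TK1 was higher at number 4, RRM1 and RRM2 were lower, and TYMS was lower by a call that most fits leaving out arrays lost. The count of 2 higher genes of 9 lies near the 26.3% of all probe sets, and nothing is read from it. ADA was no longer called at number 4 without both arrays of number 2, where its difference was 0.24 and the limma adjusted p 0.143.

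At number 2, 2 of 9 genes were higher than over the other numbers (15.4% of all probe sets) and 4 were lower (11.6%). The count of higher genes lies near its share, and nothing is read from it. The drug kinase and the nucleotidase were the higher ones: NT5C2 by 0.92 ± 0.12 (SE; limma adjusted p = 0.00178) and DCK by 0.48 ± 0.11 (0.0152). ADA (-0.98 ± 0.11; 0.0015), SLC29A1 (-0.86 ± 0.13; 0.00304), TK1 (-0.82 ± 0.11; 0.00228) and RRM2 (-0.48 ± 0.12; 0.0189) were the lower ones by the same test. RRM1 was at 11.69 at number 2, against 11.46 over the other numbers, which did not pass (limma adjusted p = 0.173). Without both arrays of number 4 the DCK difference at number 2 was 0.29 and its call was lost (0.14), and leaving out either array of number 2 also ended it (0.115 and 0.094). RRM2 lost its call at number 2 in 5 of 11 fits, with adjusted p-values up to 0.154, and for SLC29A1 the difference was -1.33 without both arrays of number 4.

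Numbers 1 and 3 had few calls. At number 1, SLC29A1 (0.95 ± 0.13; limma adjusted p = 0.00425) and RRM2 (0.46 ± 0.12; 0.0324) were higher, 2 of 9 against 10.6% of all probe sets, and 0 of 9 were lower, against 6.14%. At number 3, SLC29A1 was higher (0.87 ± 0.13; 0.0245), 1 of 9 against 1.18%, and 0 of 9 were lower, against 0.2%. RRM2 differed by nearly as much at number 3 as at number 1, 0.47 against 0.46, and did not pass there (limma adjusted p = 0.0883). These calls depended on single arrays: that of SLC29A1 was lost without either array of number 1 at number 1 (0.0726 and 0.087), and in 6 of 11 fits at number 3, up to 0.393, while RRM2 lost its call at number 1 in 7 of 11 fits, up to 0.283. Without both arrays of number 3 the RRM2 difference at number 1 was 0.70, and without both arrays of number 1 the SLC29A1 difference at number 3 was 1.34 and that of RRM2 0.70, a call (0.0319).

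Ordered from highest to lowest mean, the numbers ran 2, 3, 1, 4 for DCK, 3, 1, 2, 4 for RRM1 and TYMS, 2, 1, 3, 4 for NT5C2, 1, 3, 2, 4 for SLC29A1, 3, 1, 4, 2 for RRM2, 4, 3, 1, 2 for TK1, 4, 1, 3, 2 for ADA and 3, 2, 1, 4 for SAMHD1. Of the 27 pairs of neighbours in these orders, 11 had arrays that overlapped or touched. The arrays of neighbouring numbers stood apart throughout for DCK, TYMS and TK1. They overlapped throughout for SAMHD1, whose order therefore says little. For SLC29A1 the neighbours 1 and 3, and 2 and 4, overlapped, and the same holds for RRM2, so both genes gave a high pair and a low pair of numbers and not an order of 4.

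**Figure D3:**
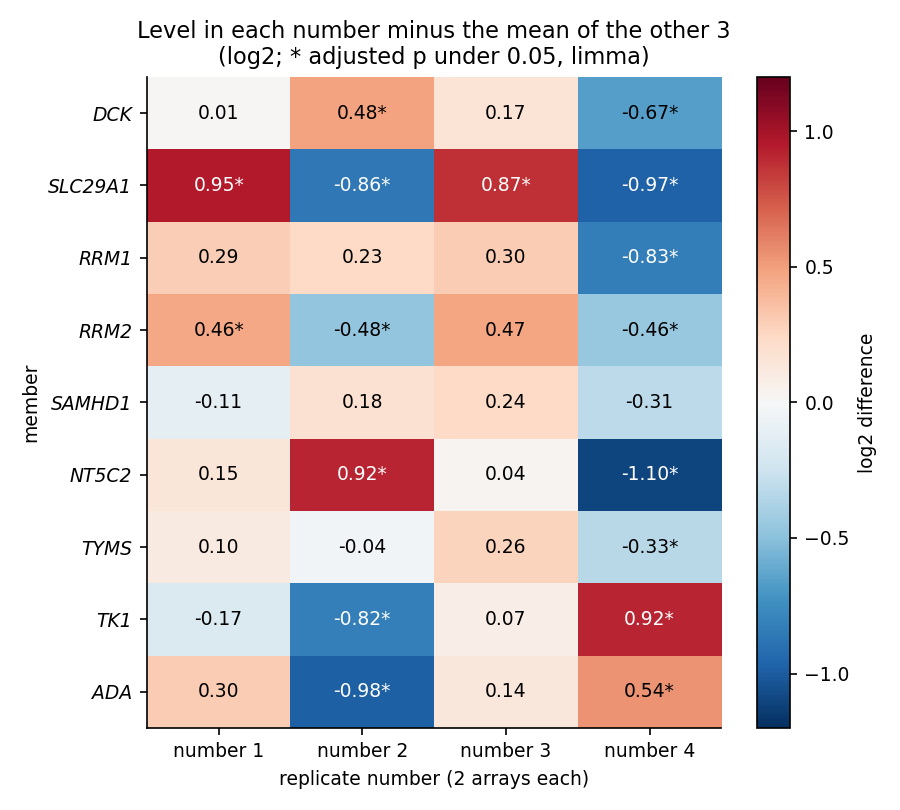
Log2 difference of each replicate number from the mean of the other numbers for the 9 genes, as a heat map with the value in each cell and calls marked. Number 4 is lower for 6 genes and higher for TK1 and ADA, and number 2 is lower for ADA, SLC29A1, TK1 and RRM2 and higher for NT5C2 and DCK.

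Other measures moved with the numbers too. Of the 12 T-cell markers, 6 were higher and 2 lower at number 4, where 26.3% of all probe sets were higher and 25.5% lower. At number 2, 1 T-cell marker was higher and 5 were lower (15.4% and 11.6% of all probe sets), at number 1, 0 were higher and 3 lower (10.6% and 6.14%), and at number 3, 2 were higher and 0 lower (1.18% and 0.2%). Of the 6 myeloid markers 3 were higher at number 4, 2 lower at number 1 and 1 lower at number 3. Of the 5 NK-cell markers 2 were higher at number 4 and 1 lower at number 2. Of the 4 B-cell markers 1 was higher and 1 lower at number 4 and 1 lower at number 2. The 3 erythroid markers had 1 higher and 1 lower at number 4 and 1 lower at number 1, and the 7 fibroblast and epithelial markers 2 higher and 1 lower at number 4 and 1 higher at number 1. Across probe sets, the difference of a number from the others correlated with the mean level at 0.233, 0.0348, 0.222 and -0.232 for numbers 1 to 4, a description over probe sets that share the same arrays. The part of either in the differences of the 9 genes was not tested.

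The promoters of 5 of these genes are shown because SLC29A1 and RRM2 had the same high and low numbers, TK1 had the opposite direction at number 4 from RRM2, RRM1 and TYMS, and all but SLC29A1 are tied to DNA synthesis. Each window is the 250 bases before a gene start in RefSeq (assembly GRCh38.p14), read on the strand of the gene. Capitals mark CCAAT or its reverse complement ATTGG, and in TYMS a form of the E2F motif.
RRM2, chr2:10122489-10122738, plus strand: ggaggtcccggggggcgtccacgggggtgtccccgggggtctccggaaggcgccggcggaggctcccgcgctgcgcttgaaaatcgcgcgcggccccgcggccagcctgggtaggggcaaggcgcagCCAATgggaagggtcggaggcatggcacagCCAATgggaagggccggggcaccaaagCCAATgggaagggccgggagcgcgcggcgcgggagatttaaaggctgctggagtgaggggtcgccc
TK1, chr17:78187053-78187302, minus strand: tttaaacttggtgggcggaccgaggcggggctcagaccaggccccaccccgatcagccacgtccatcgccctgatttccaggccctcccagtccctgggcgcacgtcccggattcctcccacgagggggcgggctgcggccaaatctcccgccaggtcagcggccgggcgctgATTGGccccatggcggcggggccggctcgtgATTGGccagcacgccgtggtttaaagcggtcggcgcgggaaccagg
RRM1, chr11:4094435-4094684, plus strand: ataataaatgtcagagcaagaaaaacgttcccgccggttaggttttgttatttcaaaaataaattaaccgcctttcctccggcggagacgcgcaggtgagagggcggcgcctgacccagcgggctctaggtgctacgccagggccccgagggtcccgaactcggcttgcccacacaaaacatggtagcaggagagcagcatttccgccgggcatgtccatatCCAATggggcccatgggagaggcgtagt
TYMS, chr18:657403-657652, plus strand: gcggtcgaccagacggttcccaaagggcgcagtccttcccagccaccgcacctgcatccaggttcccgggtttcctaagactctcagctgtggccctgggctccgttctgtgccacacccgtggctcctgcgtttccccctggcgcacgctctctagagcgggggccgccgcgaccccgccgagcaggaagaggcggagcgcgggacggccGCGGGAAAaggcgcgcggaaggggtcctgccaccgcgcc
SLC29A1, chr6:44223345-44223594, plus strand: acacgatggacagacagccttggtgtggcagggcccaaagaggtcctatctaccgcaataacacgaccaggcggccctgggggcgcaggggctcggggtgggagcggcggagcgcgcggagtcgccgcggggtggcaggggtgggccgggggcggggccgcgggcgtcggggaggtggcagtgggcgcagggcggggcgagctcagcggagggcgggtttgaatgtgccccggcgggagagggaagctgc

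The RRM2 window holds 3 CCAAT boxes in a row, each followed by the same few bases, and 2.93% of the 35116 windows of this length in the table held 3 or more. The TK1 window holds 2 as ATTGG, where 9.53% of windows held 2 or more. RRM2 and TK1 each have a second window in the table, not shown, with 1 CCAAT box in RRM2 and 0 in TK1; the windows shown are those with more boxes, so the shares above are not a like comparison. The SAMHD1 window, not shown, also holds 2, and the RRM1 window holds 1, as 32% of windows held at least 1. CCAAT boxes are bound by NF-Y, and those of RRM2 and TK1 are textbook examples of its sites. The E2F search used TTTCCCGC, TTTGGCGC, TTTCGCGC and TTTGCCGC with their reverse complements GCGGGAAA, GCGCCAAA, GCGCGAAA and GCGGCAAA; it found 1 match, GCGGGAAA in TYMS, and 2.79% of all windows held at least 1. No match of one motif overlapped another. All 9 genes had windows, 14 in total, of which 5 windows of 4 genes held CCAAT and 1 window held an E2F form, and the SLC29A1 window shown held neither. A second SLC29A1 window, not shown, also held neither. A match in these letters is a description of the window and not a measured site, and no binding was measured here. Whether these motifs relate to the differences between numbers was not tested.

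The genes around the 9 in the same pathways were read from 8 lists holding 105 symbols, of which 94 were measured. With OICR-9429, 0 of 94 passed at an adjusted p under 0.05 or at an unadjusted p under 0.05 (limma), and with the block 3 of 94 had an unadjusted p under 0.05, against 5.55% of all probe sets. Those 3 were ABCC5, AK1 and POLA1. ABCC5, an efflux pump that carries nucleotide analogues, had 6.61, 6.98, 6.81 and 6.92 in treated cells, against 6.57, 6.40, 6.55 and 6.49 in untreated cells. Its groups did not overlap, as for 0.737% of all probe sets, and the gene was named from the 94 for its small p. Its difference was 0.33 ± 0.15 (SE, limma without the block; unadjusted p = 0.0512, adjusted p = 1), and the blocked fit gave an unadjusted p of 0.0223 and an adjusted p of 0.841 in limma. The adenylate kinase AK1 was at 5.36, 5.08, 5.19 and 4.71 in treated cells, against 5.38, 5.36, 5.51 and 5.29 in untreated cells, a difference of -0.30 ± 0.17 (SE, limma without the block; adjusted p = 1). The blocked fit gave AK1 an adjusted p of 0.841 in limma. POLA1, the catalytic subunit of DNA polymerase alpha, had means of 8.62 ± 0.61 in treated and 8.33 ± 0.87 in untreated cells (SD, n = 4 each) and was named here after its value was seen.

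Treatment differences in each list were centred near 0. The median difference was 0.04 for 12 de novo purine genes (11 above 0, 1 below), 0.05 for 5 de novo pyrimidine genes, 0.04 for 13 salvage kinases and phosphoribosyltransferases, and 0.03 for 26 genes of DNA replication and the G1/S transition (18 above, 8 below). It was -0.09 for 11 nucleoside and nucleotide transporters (3 above, 8 below) and -0.06 for 11 deaminases and phosphorylases. For 8 further genes of dNTP supply it was 0.01 and for 8 5'-nucleotidases 0.03, and both medians changed sign under quantile normalization (-0.02 and -0.01). That scaling also left 13 replication genes above 0 and 13 below (median 0.0064), 8 purine genes above and 4 below, and a pyrimidine median of 0.0019. By comparison the median over all 17687 genes was 0.005. No gene named by rule in these lists passed the test. Other examples were RRM2B, the p53-inducible small subunit of ribonucleotide reductase, at 0.30 ± 0.49, MCM2, a subunit of the replicative helicase, at -0.22 ± 0.29, and the CTP synthase CTPS2 at 0.20 ± 0.25 (SE without the block, n = 4 each, limma adjusted p = 1 for all 3). With the block their unadjusted p-values in limma were 0.0597, 0.086 and 0.113, and the adjusted p was 0.841 for each.

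The lists also differed over replicate numbers. Of the 94 genes, 75 passed limma's test for any difference between numbers at an adjusted p under 0.05 (79.8%, against 50.3% of all probe sets). Here too that share covers probe sets at every level and is not matched to the levels of these genes. At number 4, 18 of the 26 replication and G1/S genes were lower and 2 higher (25.5% and 26.3% of all probe sets). Their median difference was -0.74, against 0.09 over all genes. Under quantile normalization the counts were 16 and 4 and the median -0.52. CLSPN, the claspin of the replication checkpoint, was at -2.45 and cyclin E2 (CCNE2) at -2.40, while CDT1 (1.26) and E2F2 (0.32) were the 2 higher ones, CDT1 being named after its value was seen. All 5 de novo pyrimidine genes were lower at number 4, median -0.65, with the first-step enzyme CAD at -1.16 and CTPS1 at -1.12. Under quantile normalization 3 were called, with a median of -0.41, and under median centring 4 were called. Of the 12 purine genes 8 were lower at number 4 and 0 higher (median -0.48), among them GART at -1.16 and the first-step enzyme PPAT at -1.34. Under quantile normalization 7 were lower and 1 higher, with a median of -0.41. RRM2B, at -1.62, went the same way as RRM1 and RRM2. Of the 11 deaminases and phosphorylases, 4 were higher at number 4 and 1 lower (3 and 0 under quantile normalization), with AMP deaminase AMPD2 at 1.03 and ADA2 at 0.69. Of the 11 transporters 2 were higher and 0 lower (3 and 0 under quantile normalization), and SLC29A4 was higher by 1.25 ± 0.16 (SE). These counts of higher genes lie near the share of all probe sets, 26.3%, and nothing is read from them about these lists.

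At number 1 the synthesis lists were on the other side: 7 purine genes were higher and 1 lower (median 0.49), 4 of 5 pyrimidine genes were higher and 0 lower (0.65, CAD by 1.44 ± 0.14), and 10 of 26 replication genes were higher and 0 lower (0.36), against 10.6% of all probe sets higher and 6.14% lower. A low number 4 raises the differences of the other numbers, so these counts are partly those of number 4 again. CCNE2 was called higher at number 2 with a mean of 9.155, under numbers 1 (9.505) and 3 (9.485), number 4 being at 6.985. At number 2, 5 purine genes were lower and 0 higher, 2 pyrimidine genes lower and 1 higher, and 8 replication genes lower and 4 higher. Of all probe sets, 11.6% were lower there and 15.4% higher, so the 4 higher replication genes lie near that share. The adenine salvage enzyme APRT was higher at number 1 and lower at number 2, at differences of 1.18 and -1.27, and the dCTP-cleaning enzyme DCTPP1 likewise, at 0.98 and -1.37. At number 3, 5 of 26 replication genes and 1 purine gene were higher and none of these lists had a lower one (1.18% and 0.2% of all probe sets). Of the 13 salvage genes, 4 were higher and 5 lower at number 4, with the mitochondrial kinase AK4 at 1.17 there and at -1.53 at number 1. The 8 nucleotidases likewise split 3 higher and 4 lower at number 4, where 26.3% of all probe sets were higher and 25.5% lower. NT5DC1 (-1.41), NT5DC2 (-0.80), NT5C3B (-0.59) and NT5C3A (-0.35) were lower as NT5C2 was. NT5C1A (0.62), NT5M (0.61) and NT5C (0.58) were the higher ones.

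**Figure D4:**
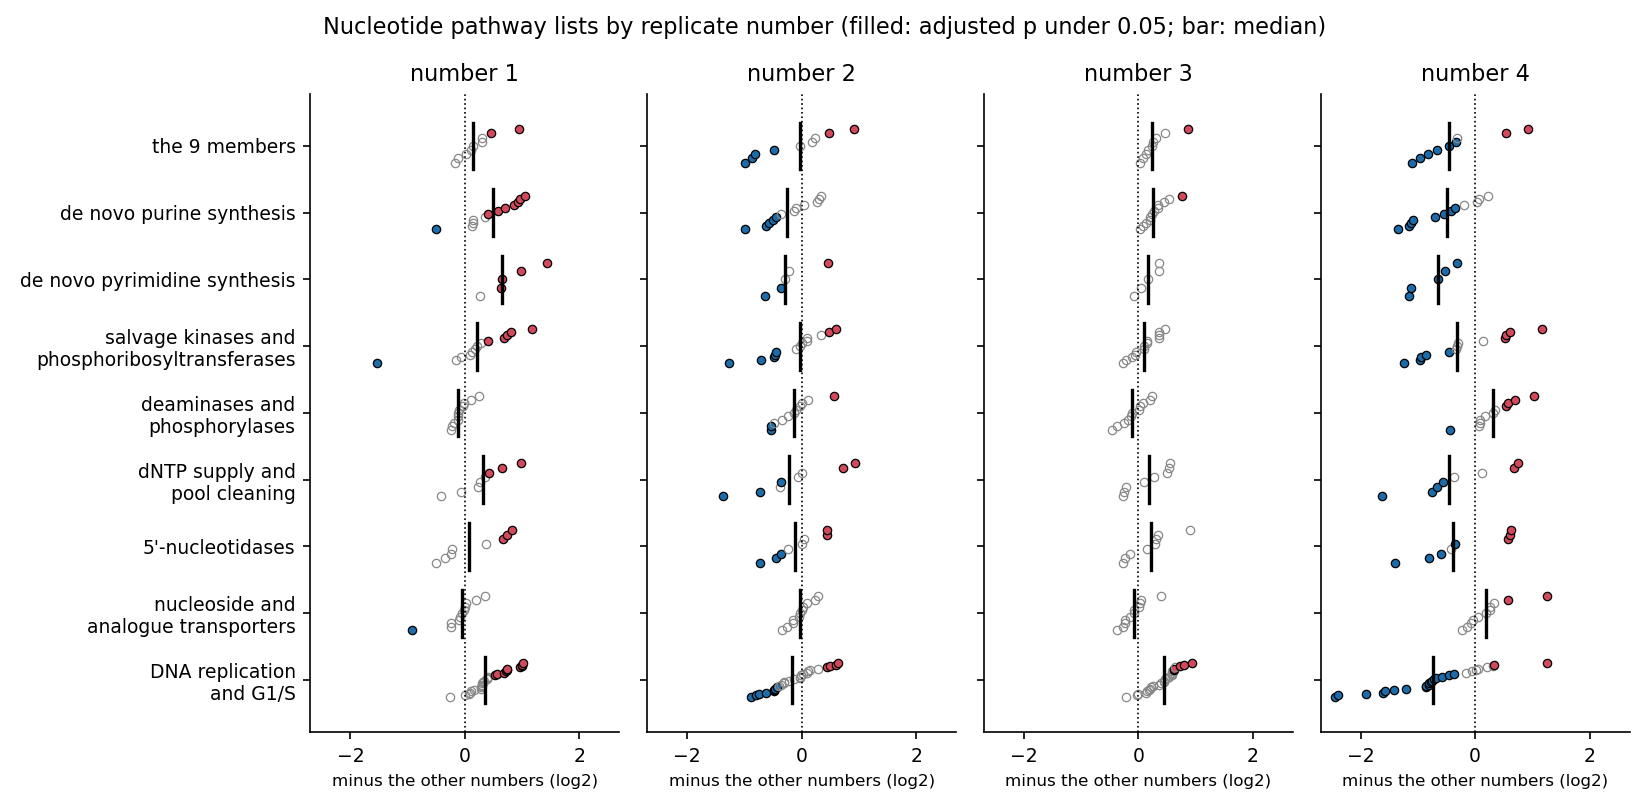
Log2 difference of each gene from the mean of the other numbers (horizontal axis), 1 panel per replicate number, for the 9 genes and the 8 pathway lists, with 1 circle per gene, filled where the adjusted p is under 0.05, and a vertical bar at the list's median. At number 4 the replication and pyrimidine lists have medians of -0.74 and -0.65 and the deaminase list 0.32, and at number 1 the pyrimidine and purine lists have medians of 0.65 and 0.49.

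The genes whose levels followed each of the 9 most closely were found by Pearson's r over the 8 arrays. Since the arrays form 4 pairs, high values are common, and r is given as a description. For TYMS they were TCEAL8 (0.991), CDC6 (0.988) and PRPS2 (0.988). CDC6 loads the replicative helicase and PRPS2 makes the ribose donor of nucleotide synthesis. SLC29A1 was closest to ICMT (0.990), TCOF1 (0.983) and the uracil DNA glycosylase UNG (0.982), and RRM2 to TTPAL (0.990), POLR1A (0.988) and TIMM8A (0.986). TK1 was closest to P4HB (0.997), the kinetochore gene SPC24 (0.992) and PFKP (0.992), and ADA to APEH (0.996), NMT1 (0.992) and PSMC4 (0.991). For RRM1 the 3 closest were DDX46, DNAJC10 (both 0.998) and PIGK (0.997), for DCK DLG1 (0.996), the clamp-loader subunit RFC1 and ZNF451 (both 0.995), and for NT5C2 PDE3B (0.998), DIAPH3 (0.997) and NHLRC3 (0.995). The SAMHD1 values had no such near match: the closest were DRC3 (0.952), AKIRIN1 (0.944) and CRTAM (0.940). The share of genes with an r above 0.9 was 11.4% for RRM1, 10.1% for DCK and 9.48% for NT5C2. It was 3.89% for TK1, 2.76% for ADA, 2.21% for TYMS, 1.12% for SLC29A1, 0.967% for RRM2 and 0.0622% for SAMHD1.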

How the data were processed

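The values used were log2 expression values deposited by the authors for each probe set; RMA and Transcriptome Analysis Console were used per the submitters' processing notes, in versions not given there. Labelling was with a GeneChip whole-transcript kit, per the labels. The 8 arrays were grouped by the labelled treatment and numbered by their titles. Gene symbols came from the annotation of the platform (17709 with 1 symbol, 0 with several, 3739 with none), and a gene with several, as 20 genes had, was taken by its highest mean. Promoter windows came from RefSeq (GRCh38.p14); the genome build used for the probe sets was not stated.

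From these values, limma 3.58.1 in R 4.3.3 (lmFit, eBayes) compared OICR-9429 with untreated cells without a block, and fitted number plus treatment for the tests between numbers. Tests were two-sided with Benjamini-Hochberg adjustment over all probe sets and a threshold of 0.05. Deviations from the group means correlated between same-numbered arrays at 0.696, 0.748, 0.566 and 0.865, each above the limit of 0.1, so the numbers pair the samples. The fits were tested on simulated data. Named genes were the 9, the 2 with the smallest p of each list for treatment and for numbers, and the 3 nearest by r. The members, lists and tests were chosen with earlier results of these data known. Alternatives were the block, quantile normalization, median centring, a filter on level, a trended robust prior and leaving out arrays or pairs. Scanner files were not used here, so signal over background and scan batches were not examined, and the number of arrays limits the precision. Of the list symbols, 11 were not analysed here.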

Additional observations from a re-analysis of the deposited data

Results flagged for a closer look

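RRM1, the large subunit of ribonucleotide reductase, had 1 array far from the rest in each group, and in both it was number 4. The OICR-9429 array of number 4 was at 10.94, against 11.69 to 11.83 on the other treated arrays. The untreated array of number 4 was at 10.84, against 11.63 to 11.78 on the other untreated arrays. In both groups the gap to the nearest array, as a share of the whole range, was above Dixon's 95% critical value for 4 arrays, at 0.843 in treated and 0.840 in untreated cells. Of 18 groups examined (9 genes in 2 groups) these 2 were marked, and chance marks about 1 group in 20. Both marks come from number 4 of 1 gene, and deviations of its 2 arrays correlated at 0.865 across probe sets. They are therefore not independent marks. Without both arrays of number 4, the test for any difference between numbers no longer called RRM1 (limma adjusted p = 0.956).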

How the results depend on the processing

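The treatment comparison called 0 of 9 genes and 0 probe sets under every alternative run, the replicate block and the 12 fits leaving out arrays or pairs included; with the block the smallest adjusted p among the 9 was 0.841, and it changed no other call. Over these 12 fits the SAMHD1 difference ran from 0.20 (without untreated replicate 4) to 0.45, and for the other genes the sign turned: DCK ran from -0.081 to 0.25, SLC29A1 from -0.39 to 0.16, RRM1 from -0.13 to 0.28, RRM2 from -0.094 to 0.19, NT5C2 from -0.16 to 0.39, TYMS from -0.095 to 0.07, TK1 from -0.26 to 0.20 and ADA from -0.31 to 0.18. Fits without a single array had no block, so a number missing from one group moved that group's mean. Blocked fits without a pair kept both groups on the same numbers, and there the sign turned only for TYMS and TK1. In those blocked fits DCK stayed at 0.063 to 0.137, and RRM1 and NT5C2 also stayed above 0. SLC29A1 and ADA stayed below 0, and RRM2 was at 0 without replicate 2 and above 0 otherwise. Under median centring TYMS was at 0.02 and TK1 at 0.0125, and in the blocked fit TYMS was at 0.01 and 0.0067 without replicates 1 and 2 and TK1 at 0.01 and 0.03 without replicates 2 and 3; under quantile normalization DCK at number 1 was at -0.081 and NT5C2 at number 3 at -0.045, and the cause was not tested. Calls at number 1 were 4 of 9 with the trended robust prior, 1 with quantile normalization and 4 with the filter on level, against 2; at number 3 they were 4 and 2 with prior and filter, against 1, and the probe sets 2136 and 1728, against 297 (the filter kept 10721 probe sets and dropped SAMHD1). Leaving out arrays or pairs, any difference between numbers was called for 2979 to 10394 probe sets (2979 without both arrays of number 4, against 10791) and 5 to 7 of the 9; DCK was lost without that pair (adjusted p = 0.221) and ADA without both arrays of number 2 (0.238). Probe sets called ran from 134 to 5489 at number 1, 1253 to 6332 at number 2, 16 to 2783 at number 3 and 8597 to 11049 at number 4, and genes of the 9 from 0 to 4, 4 to 6, 0 to 2 and 6 to 8. Signs turned at number 1 for DCK (-0.23 to 0.20), NT5C2 (-0.25 to 0.51), TYMS (-0.0075 to 0.215), TK1 (-0.50 to 0.15) and ADA (-0.0275 to 0.545), at number 2 for RRM1 (-0.0475 to 0.38) and TYMS (-0.165 to 0.0575), and at number 3 for DCK (-0.06 to 0.37), NT5C2 (-0.37 to 0.38), TK1 (-0.22 to 0.43) and ADA (-0.215 to 0.36), none of them called there with all arrays. Averaging probe sets of a gene was not run, since each of the 9 had 1.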
